A study of Arabidopsis thaliana with 9 samples.

Results

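The beta-glucosidases and myrosinases of Arabidopsis thaliana belong to glycoside hydrolase family 1, and 41 of the 24635 genes measured in these seedlings were taken as its members. Members were chosen by name: every gene with a numbered BGLU symbol, together with DIN2, PYK10, PEN2, TGG1 and TGG2, which are BGLU30, BGLU23, BGLU26, BGLU38 and BGLU37 under family names of their own. Polyadenylated RNA was sequenced from whole seedlings 6 days old, grown in cycles of 16 hours light and 8 hours dark, in 3 groups of 3 libraries. The first group was untreated wild-type Col-0, and the second was untreated melinoe, an EMS (chemically induced) mutant line of FMN/FHY, the gene for an enzyme that makes the flavin cofactor FMN from riboflavin and also breaks FMN down. The third group was Col-0 given riboflavin, vitamin B2, for 8 hours in the dark period, at 0.6 mM by the sample labels and 0.2 mM by the series' design text. Neither a mock treatment nor the hour at which untreated seedlings were collected is stated, so riboflavin and the hour of collection cannot be told apart, and an EMS line may carry mutations in other genes. Both comparisons against Col-0 used the same 3 Col-0 libraries.

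Enzymes of this family cut a glucose from a small molecule and so release it in active form. Plants store defence compounds, hormones and cell wall precursors as glucosides, apart from the enzyme that opens them. Myrosinases are the members that open glucosinolates, the sulfur-containing defence compounds of the cabbage order. Classical myrosinases sit in myrosin cells and guard cells, while PYK10 and its relatives are packed into ER bodies, rod-shaped stores of the endoplasmic reticulum found in seedlings and roots. BGLU28 and DIN2 are known for their induction by sulfur deficiency and darkness, and are described as breaking down glucosinolates when sulfur is short.

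Classical myrosinases differ from the other members at 1 catalytic position, and the coding sequence around it is shown here for the members on which the results below turn. Most beta-glucosidases carry a glutamate there that donates a proton, whereas classical myrosinases carry glutamine. The windows of 33 bases are coding-strand sequence from RefSeq (TAIR10.1), and capitals mark the codon of that residue.
TGG1: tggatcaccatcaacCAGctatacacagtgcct
TGG2: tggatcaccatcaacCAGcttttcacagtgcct
BGLU34: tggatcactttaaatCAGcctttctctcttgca
BGLU35: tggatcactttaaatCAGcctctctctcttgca
PYK10: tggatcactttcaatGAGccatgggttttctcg
PEN2: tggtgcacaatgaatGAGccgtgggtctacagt
BGLU28: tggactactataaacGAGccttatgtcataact
DIN2: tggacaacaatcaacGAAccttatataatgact
In order, these windows lie at chr5:9081211-9081243 on the minus strand, chr5:9073907-9073939, chr1:17493051-17493083, chr1:19088701-19088733, chr3:2842150-2842182 on the minus strand, chr2:18365857-18365889, chr2:18348051-18348083 and chr3:22218879-22218911, the rest on the plus strand, each within 1 coding exon. The glutamine codon was found in 4 of the 41 members, the 4 printed first, and a glutamate codon in the other 37. PEN2 and PYK10, which are described as atypical myrosinases, had the glutamate codon, as did BGLU28 and DIN2.

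Changes within the family are given on the CPM scale (counts divided by the TMM-scaled library size), tested with edgeR's quasi-likelihood test and called at a Benjamini-Hochberg adjusted p under 0.05 over all genes. Of the 41 members, 34 had enough reads to be tested with riboflavin against Col-0, 33 in melinoe against Col-0 and 34 with riboflavin against melinoe. With riboflavin 15 members were higher and 15 lower than in Col-0, or 44.1% of those tested each way, where 36.8% of all 20356 genes were higher and 37.4% lower. In melinoe 8 members (24.2%) were higher and 15 (45.5%) lower, beside 25.4% and 25.2% of 20277 genes. With riboflavin against melinoe, 17 (50%) were higher and 10 (29.4%) lower, beside 37.0% and 37.1% of 20344 genes. Some of these calls were of members that passed the filter on low counts only through the group where they were high, which favours a difference. Against Col-0 these were BGLU28, BGLU1 and BGLU24, all with riboflavin, and with riboflavin against melinoe BGLU28, BGLU27 and BGLU1. Those calls are among the counts above, 3 with riboflavin against Col-0 and 3 with riboflavin against melinoe. BGLU27 in melinoe against Col-0 also passed only through Col-0 and was not called, which does not bear on the members that were. The counts describe the members without supporting a statement about the family. The median log2 fold change of tested members was -0.07 with riboflavin, -0.25 in melinoe and 0.17 between riboflavin and melinoe, where the median of all genes was within 0.01 of 0 in each comparison.

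**Figure D1:**
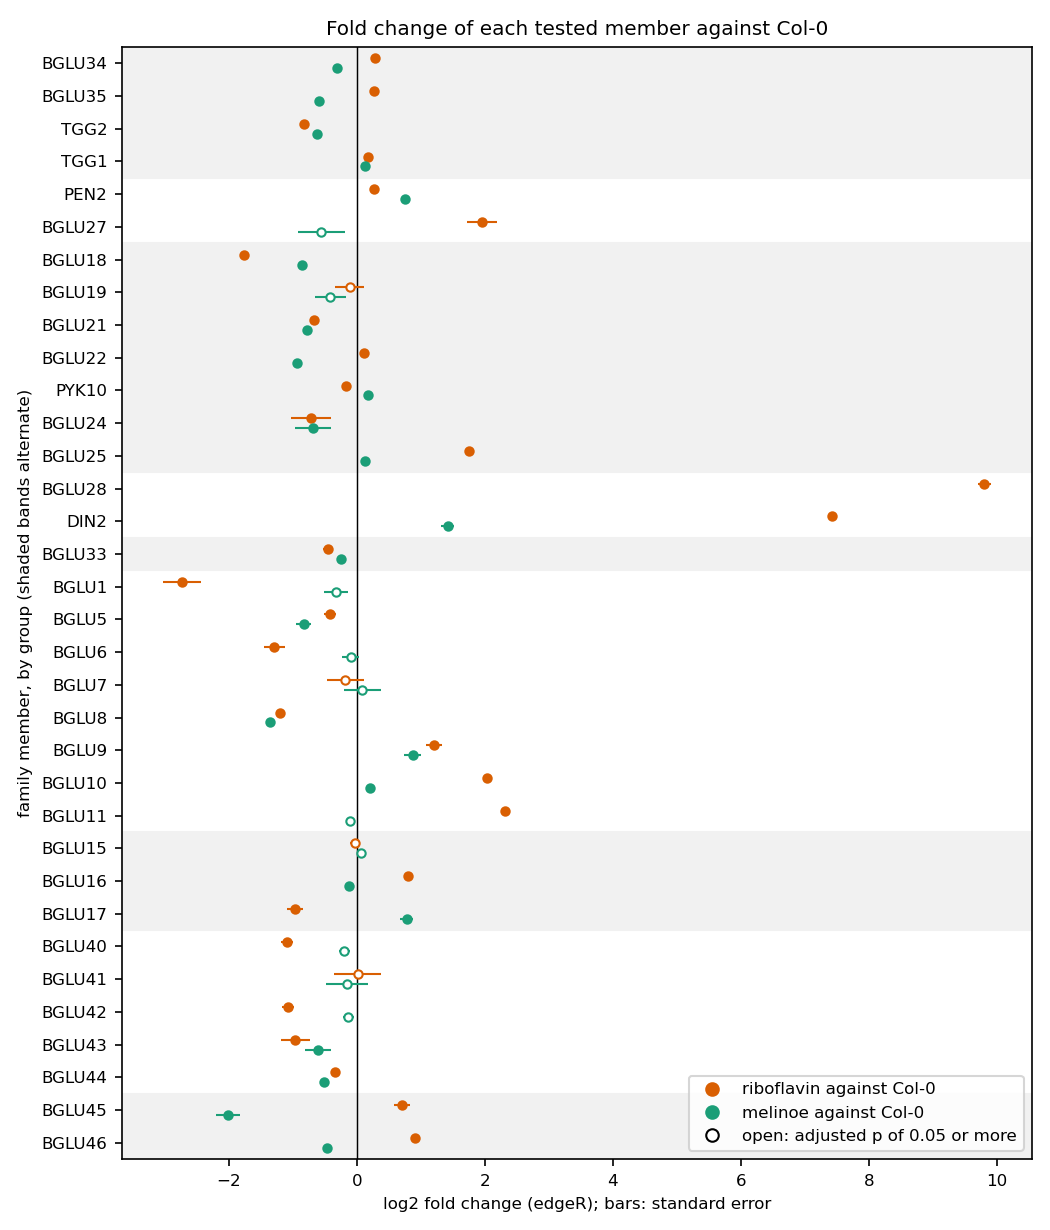
Log2 fold change (horizontal axis) of each tested member against Col-0, with riboflavin in orange and in melinoe in green, members grouped by role in alternating bands; bars are standard errors and open circles did not pass the test. BGLU28 at 9.80 and DIN2 at 7.43 with riboflavin stand far to the right, while the melinoe values lie between -2.01 and 1.42.

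The largest changes lay in the group of BGLU28, BGLU29, DIN2, BGLU31 and BGLU32. BGLU28 (AT2G44460) had 4, 7 and 3 reads in the Col-0 libraries and 10, 8 and 9 in melinoe, and 4107, 4107 and 4171 with riboflavin. On the CPM scale this was 0.184, 0.328 and 0.140 in Col-0, 0.507, 0.389 and 0.438 in melinoe, and 198, 196 and 203 with riboflavin. The riboflavin libraries agreed closely and no other library came near them. BGLU28 was 895-fold higher with riboflavin than in Col-0, a log2 fold change of 9.80, and 447-fold higher than in melinoe, values given as a description because of the filter. BGLU28 was below the filter in melinoe against Col-0. Without that filter its log2 fold change there was 1.01 with an edgeR adjusted p of 0.0959.

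DIN2 (AT3G60140), first described as a transcript of leaves kept in darkness, had 3.90, 4.17 and 4.54 CPM in Col-0, 11.1, 12.1 and 10.6 CPM in melinoe, and 727, 730 and 717 CPM with riboflavin. The 3 groups did not overlap, and DIN2 was higher than Col-0 in both others. With riboflavin it rose by a log2 fold change of 7.43 ± 0.06 (SE; edgeR adjusted p = 1.20e-33) and in melinoe by 1.42 ± 0.10 (edgeR adjusted p = 4.29e-12). Among the 33 members tested in melinoe against Col-0, DIN2 had the highest log2 fold change. Riboflavin against melinoe gave 6.02 ± 0.05. The other 3 genes of the group, BGLU29, BGLU31 and BGLU32, had 0 to 2 reads and at most 0.0966 CPM in any library and were not tested, so neither a fall nor a small rise was detectable at this depth, while no rise to the levels of BGLU28 or DIN2 was seen. BGLU31 was listed only in the table that holds the riboflavin libraries.

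The genes of this group that changed most, and the silent neighbour BGLU29, are shown by the 250 bases before their annotated starts, all on the plus strand of TAIR10.1 (RefSeq), with the core of the sulfur response element, GAGAC on either strand, in capitals.
BGLU28: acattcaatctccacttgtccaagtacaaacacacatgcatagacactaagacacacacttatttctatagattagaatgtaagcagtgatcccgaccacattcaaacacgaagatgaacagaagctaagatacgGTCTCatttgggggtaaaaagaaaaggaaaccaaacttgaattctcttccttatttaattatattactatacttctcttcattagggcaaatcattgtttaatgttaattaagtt
DIN2: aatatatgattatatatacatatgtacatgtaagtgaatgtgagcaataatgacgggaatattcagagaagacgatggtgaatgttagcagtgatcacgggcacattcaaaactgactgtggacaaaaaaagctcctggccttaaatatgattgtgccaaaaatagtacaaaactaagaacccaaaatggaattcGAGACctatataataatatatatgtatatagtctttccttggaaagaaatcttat
BGLU29: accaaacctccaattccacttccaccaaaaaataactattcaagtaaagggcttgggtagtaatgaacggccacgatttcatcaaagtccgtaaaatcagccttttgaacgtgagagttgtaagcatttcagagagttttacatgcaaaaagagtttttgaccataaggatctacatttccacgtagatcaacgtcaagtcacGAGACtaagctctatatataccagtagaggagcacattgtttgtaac
They lie at chr2:18346056-18346305, chr3:22216290-22216539 and chr2:18353936-18354185. All 5 genes of the group held the core, with BGLU29, BGLU31 and BGLU32 among them at almost no reads. In the whole family 10 of 41 promoters held it (24.4%), beside 25.5% of 24634 promoters of the same length. The core is short and common, and a match describes the letters only.

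**Figure D2:**
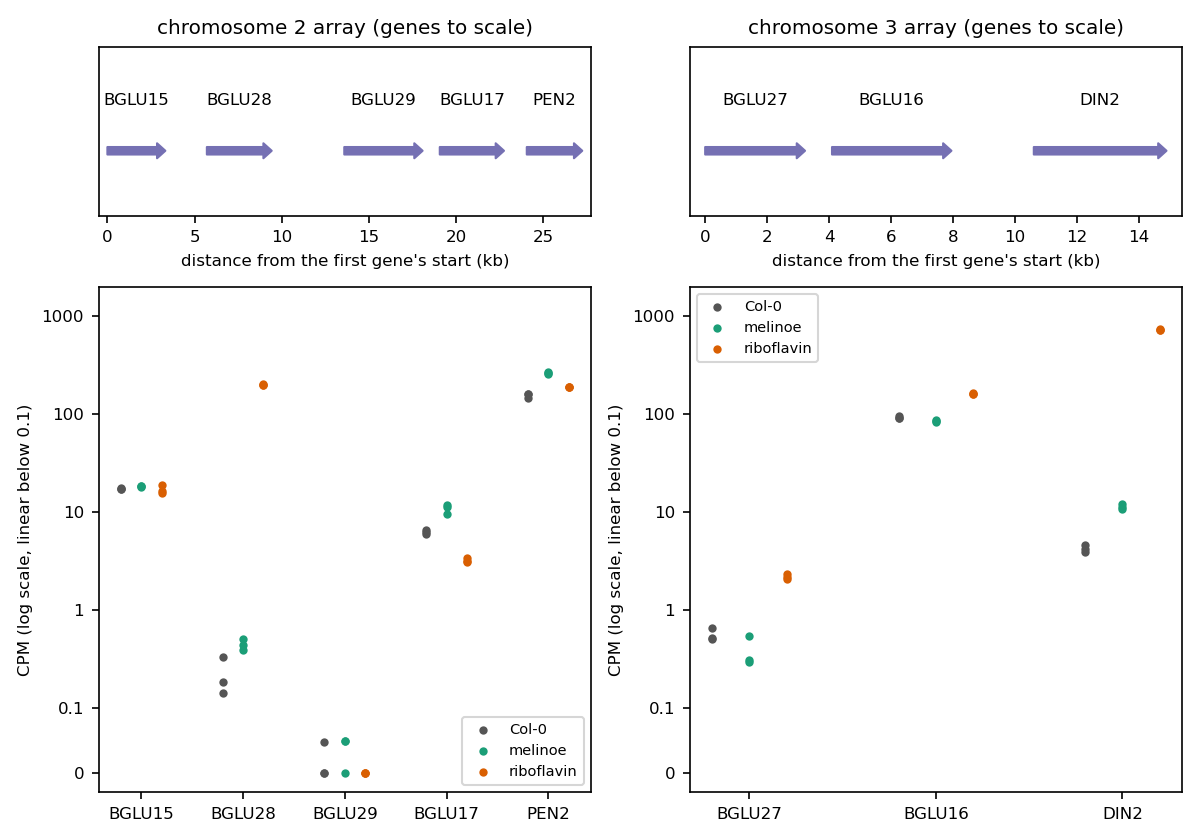
Gene maps of the chromosome 2 and chromosome 3 arrays, drawn to scale in kb from the first gene's start with arrows pointing in the direction of transcription, above the CPM (log scale, linear below 0.1) of each gene in the 3 libraries of each group. BGLU28 and DIN2 in the riboflavin libraries stand at 196 to 203 and 717 to 730 CPM while their neighbours BGLU15 and BGLU16 stay near or within 2-fold of Col-0.

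BGLU28 and DIN2 each sit in a tandem array of family members, which allows a change to be set beside those of adjacent copies. BGLU15, BGLU28, BGLU29, BGLU17 and PEN2 follow each other on chromosome 2 between 18340602 and 18367835 (TAIR10.1), all in one direction and with 1 other annotated gene, between BGLU28 and BGLU29. With riboflavin BGLU28 was higher by 9.80 on the log2 scale, BGLU17 fell by 0.97, PEN2 rose by 0.27, BGLU15 did not pass the test at -0.03 and BGLU29 had no read. BGLU27, BGLU16 and DIN2 are adjacent on chromosome 3 between 22205931 and 22220824, and with riboflavin rose by 1.96, 0.80 and 7.43. In melinoe only DIN2 of these 3 rose, while BGLU16 was lower by a log2 fold change of -0.13 and BGLU27 did not pass at -0.56. BGLU28 and BGLU29 share 81.3% of their aligned coding bases, and DIN2 and BGLU28 75.9%.

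Other genes of the responses for which BGLU28 and DIN2 are known were read from lists of genes outside the family. Counts from these and later lists are to be read beside the shares of all genes tested. Those were 36.8% higher and 37.4% lower with riboflavin, and 25.4% higher and 25.2% lower in melinoe. Of 14 sulfur deficiency genes, 13 were higher and 1 lower with riboflavin (median log2 fold change 2.39), and 1 was higher and 6 lower in melinoe. LSU1, LSU3 and SDI1, markers of sulfur shortage, and GGCT2;1, a glutathione-degrading enzyme, had log2 fold changes of 5.47, 4.24, 4.95 and 3.74 with riboflavin. In melinoe SDI1 was lower at -1.11 and LSU3 was lower too, and LSU1 and GGCT2;1 did not pass at -0.14 and -0.54. Of 10 genes of darkness and sugar starvation, 9 were higher and 1 lower with riboflavin, with a median of 0.66, and 1 was higher and 4 lower in melinoe. DIN6, an asparagine synthetase, DIN11, DIN9 and BCAT2, an aminotransferase of branched-chain amino acids, had 2.10, 2.09, 1.92 and 1.30 with riboflavin. DIN11 and DIN6 were lower in melinoe, at -1.03 and -0.68, where DIN2 was higher.

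Classical myrosinases formed the second most abundant group, and its genes moved in different directions. TGG1 (AT5G26000), the main myrosinase of guard cells and of myrosin cells along the veins, had 711, 739 and 759 CPM in Col-0, 800, 815 and 803 in melinoe and 821, 832 and 825 with riboflavin. Col-0 lay lowest without overlap, yet the change was small. The log2 fold change was 0.17 ± 0.03 with riboflavin (edgeR adjusted p = 8.10e-05) and 0.13 ± 0.04 in melinoe (edgeR adjusted p = 0.00366), and riboflavin against melinoe did not pass at 0.05 ± 0.03. TGG2 (AT5G25980), the member nearest to TGG1 in coding sequence, had 220.5, 220.1 and 210.1 CPM in Col-0, 142, 138 and 143 in melinoe and 120.3, 124 and 124 with riboflavin. Every library of both other groups lay below Col-0. Its log2 fold change was -0.82 ± 0.04 with riboflavin (edgeR adjusted p = 4.78e-17) and -0.62 ± 0.04 in melinoe (edgeR adjusted p = 9.88e-14). TGG2 and TGG1 lie 2 annotated genes apart on chromosome 5, on opposite strands, with 81.9% identical coding bases.

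BGLU34 and BGLU35, root myrosinases also named TGG4 and TGG5, share 97.7% of their coding bases, and their counts were not whole numbers in 7 of 9 libraries each, so reads were split between them by estimation and their separate values are uncertain. Both were higher with riboflavin, at 0.29 and 0.28 on the log2 scale, and lower in melinoe, at -0.32 and -0.59. Of 7 root markers 1 was higher and 4 lower with riboflavin, and 0 higher and 5 lower in melinoe, and their summed level was 145 to 165 TPM (a length-corrected level computed from the counts) in Col-0, 122 to 133 in melinoe and 125 to 132 with riboflavin, none at 0; their part in these values was not tested. In bulk tissue, fewer cells of a type and less RNA per cell cannot be told apart. Of 6 markers listed for guard and myrosin cells, only FAMA, the regulator of both cell types, bears on myrosin cells. The 6 had summed levels of 53.5 to 58.9 TPM in Col-0, 51.7 to 53.6 in melinoe and 36.8 to 48.4 with riboflavin, none at 0. With riboflavin 0 of 6 were higher and 3 lower, and in melinoe 2 were higher and 1 lower. FAMA itself did not pass with riboflavin at 0.03 and was higher in melinoe at 0.28. The part of these markers in the TGG1 and TGG2 values was not tested.

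Partners that decide what a myrosinase's product becomes were read beside these enzymes. Of 11 such genes tested, 6 were higher and 4 lower with riboflavin, beside 36.8% and 37.4% of all genes. In melinoe 2 were higher and 8 lower, beside 25.4% and 25.2%. NIT2, a nitrilase, and NSP5, a nitrile-specifier protein, had log2 fold changes of 3.13 and 2.67 with riboflavin and 0.16 and -0.13 in melinoe. ESM1, which favours isothiocyanates, was lower in both, at -1.46 and -1.03. ESP, which favours epithionitriles and nitriles, was higher with riboflavin at 0.86 and lower in melinoe at -1.76, on at most 2.75 mean CPM.

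PEN2 (AT2G44490), an atypical myrosinase that opens indole glucosinolates against fungi, had 160.3, 146 and 162 CPM in Col-0, 268, 262 and 257 in melinoe and 188, 187 and 190 with riboflavin. The groups did not overlap, and melinoe was highest. On the log2 scale it rose by 0.75 ± 0.04 in melinoe (edgeR adjusted p = 8.13e-15) and by 0.27 ± 0.04 with riboflavin (edgeR adjusted p = 7.13e-07), and it differed by -0.46 ± 0.03 with riboflavin against melinoe (edgeR adjusted p = 3.58e-13). Its pathway held 8 listed genes, of which 6 were higher and none lower in melinoe and 5 were higher and 1 lower with riboflavin. CYP81F2 and IGMT2, which modify the indole glucosinolate before PEN2 acts, had 1.96 and 1.99 in melinoe and 1.72 and 1.42 with riboflavin. BGLU27, the nearest member to PEN2 at 61.7% of coding bases, was higher with riboflavin at 1.96, on at most 2.34 CPM.

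PYK10 (AT3G09260), the main protein of ER bodies in seedlings and roots, was the most abundant member in every group. It had 3861, 3867 and 3836 CPM in Col-0, 4345, 4421 and 4324 in melinoe and 3324, 3464 and 3455 with riboflavin. The 3 groups did not overlap, with melinoe above Col-0 and riboflavin below it. The differences were small, with a log2 fold change of -0.17 ± 0.03 with riboflavin (edgeR adjusted p = 3.84e-05) and 0.18 ± 0.03 in melinoe (edgeR adjusted p = 8.33e-05). BGLU21 and BGLU22, close relatives that with PYK10 open the coumarin glucoside scopolin in roots, had different patterns. BGLU21 had 209, 218 and 216 CPM in Col-0, 122, 123 and 129 in melinoe and 136, 136 and 134 with riboflavin. It was lower than Col-0 in both, at -0.66 ± 0.04 with riboflavin and -0.78 ± 0.04 in melinoe.

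BGLU22 had 151, 161 and 165 CPM in Col-0, 82.9, 83.2 and 83.8 in melinoe and 175, 171 and 168 with riboflavin. Melinoe stood apart below, while the riboflavin libraries lay just above the highest Col-0 library. The log2 fold change was -0.93 ± 0.04 in melinoe (edgeR adjusted p = 7.62e-17) and 0.11 ± 0.04 with riboflavin (edgeR adjusted p = 0.0117). With upper quartile scaling the riboflavin value was 0.05 at an edgeR adjusted p of 0.261, and without Col-0 library A it was 0.07 at 0.101, so that call was lost. The pair shares 93.3% of coding bases, but a count was not whole in only 1 of 9 libraries for each.

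BGLU18, which frees abscisic acid from its glucose ester and builds wound-induced ER bodies, had 84.1, 83.3 and 80.8 CPM in Col-0, 44.5, 44.9 and 47.6 in melinoe and 24.0, 24.1 and 25.1 with riboflavin. Col-0 was highest and riboflavin lowest, without overlap between the groups. The log2 fold change was -1.76 ± 0.05 with riboflavin (edgeR adjusted p = 4.75e-22) and -0.86 ± 0.05 in melinoe (edgeR adjusted p = 3.03e-15). BGLU25 went the other way with riboflavin, with 45.4, 47.3 and 47.9 CPM in Col-0, 50.8, 51.4 and 51.4 in melinoe and 156, 161 and 157 with riboflavin. Its log2 fold change was 1.76 ± 0.04 with riboflavin (edgeR adjusted p = 1.92e-23). In melinoe it was 0.13 ± 0.05 (edgeR adjusted p = 0.0245), a call lost with DESeq2 and without any of 3 single libraries, where the value stayed between 0.10 and 0.13.

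Coding sequence set BGLU25 apart as well. At the second catalytic position, where 39 of 41 members carry the glutamate that attacks the sugar, its annotated sequence has a glycine codon, shown in capitals beside PYK10 (TAIR10.1, RefSeq; both windows span an intron).
BGLU25: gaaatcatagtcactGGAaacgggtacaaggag
PYK10: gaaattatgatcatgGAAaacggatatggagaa
The windows fall within chr3:883465-883583 and, on the minus strand, chr3:2841044-2841165. The other exception was BGLU6, whose annotated protein of 379 residues, the shortest in the family, ends before that position. An ER retrieval signal was read as lysine, histidine or arginine, then aspartate or glutamate, then glutamate and leucine. It closed the coding sequence of 6 members, BGLU18, BGLU19, BGLU21, BGLU22, PYK10 and BGLU24. The coding sequence of BGLU25 ended in arginine, lysine, glutamate and leucine, which missed that pattern at the second residue only.

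BGLU19 did not pass in any comparison. BGLU24, at no more than 1.17 CPM, was over the filter with riboflavin only through Col-0. It was lower at -0.71 with riboflavin and -0.69 in melinoe (edgeR adjusted p = 0.0411 in each). Of 12 alternatives, 5 lost the riboflavin call and 8 the melinoe call. DESeq2 made neither call (adjusted p = 0.158 and 0.204). Without riboflavin library A the riboflavin value was -0.38 (edgeR adjusted p = 0.265). Without Col-0 library C the values were -0.60 and -0.57 (edgeR adjusted p = 0.138 and 0.153). ER body genes outside the family were mixed, with 5 of 12 higher and 5 lower with riboflavin and 6 higher and 2 lower in melinoe. NAI2 and MEB1, structural proteins of the ER body, did not pass in either, with log2 fold changes between -0.04 and 0.04. JAL23, a lectin of the PYK10 complex, had -1.03 with riboflavin and -4.28 in melinoe on at most 2.99 mean CPM, and GLL23, a lipase-like member of that complex, had -1.91 with riboflavin and -0.07, not passing, in melinoe.

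Among BGLU1 to BGLU11, 8 of 10 listed members were tested. BGLU11 had 48.0, 51.4 and 50.1 CPM in Col-0, 46.5, 45.8 and 46.5 in melinoe and 241, 251 and 253 with riboflavin. The riboflavin libraries all stood above Col-0, with a log2 fold change of 2.32 ± 0.04 (edgeR adjusted p = 4.03e-26), and melinoe did not pass at -0.11 ± 0.05 (edgeR adjusted p = 0.0518), though it was called with upper quartile scaling, in the fit of all 9 libraries and without Col-0 library A. BGLU10, for which roles in anthocyanin glucosylation and in releasing abscisic acid have been described, had 21.7, 21.3 and 22.7 CPM in Col-0, 24.3, 25.0 and 26.1 in melinoe and 88.6, 86.5 and 92.6 with riboflavin. It was higher in both, by log2 fold changes of 2.03 ± 0.05 with riboflavin and 0.20 ± 0.06 in melinoe. Its neighbour BGLU9, with 94.3% identical coding bases, had 3.44, 3.38 and 2.76 CPM in Col-0, 5.83, 5.45 and 6.28 in melinoe and 6.66, 7.21 and 8.17 with riboflavin. BGLU9 was also higher in both, at 1.20 ± 0.12 and 0.87 ± 0.13.

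BGLU8 had 54.2, 53.8 and 57.7 CPM in Col-0, 21.8, 23.6 and 19.8 in melinoe and 24.2, 24.3 and 23.7 with riboflavin. Col-0 stood above both other groups. The log2 fold change was -1.35 ± 0.06 in melinoe (edgeR adjusted p = 3.31e-17) and -1.20 ± 0.05 with riboflavin (edgeR adjusted p = 1.20e-17). BGLU5 had 8.44, 9.71 and 9.16 CPM in Col-0, 5.43, 5.98 and 3.99 in melinoe and 7.10, 6.63 and 6.61 with riboflavin. It was lower than Col-0 in both, at -0.83 ± 0.12 in melinoe and -0.42 ± 0.10 with riboflavin. At lower levels BGLU6 was lower with riboflavin at -1.29 ± 0.16 and did not pass in melinoe. It has been described as a flavonol glucosyltransferase, but its protein as annotated here ends before the second catalytic position. BGLU1 had 51, 43 and 39 reads in Col-0, 30, 39 and 31 in melinoe and 5, 10 and 4 with riboflavin. It passed the filter with riboflavin only through Col-0, so its log2 fold change of -2.73 is a description, and it did not pass the test in melinoe. BGLU7 passed in no comparison, and BGLU3 and BGLU4 had too few reads to be tested.

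Among BGLU12 to BGLU17, BGLU17 moved in opposite directions in the comparisons against Col-0. It had 6.29, 5.91 and 6.55 CPM in Col-0, 9.43, 11.7 and 11.1 in melinoe and 3.38, 3.05 and 3.11 with riboflavin. The groups did not overlap. The log2 fold change was 0.78 ± 0.10 in melinoe (edgeR adjusted p = 2.22e-07), -0.97 ± 0.12 with riboflavin (edgeR adjusted p = 5.70e-08) and -1.74 ± 0.12 with riboflavin against melinoe (edgeR adjusted p = 2.55e-14). BGLU16 was higher with riboflavin at 0.80 ± 0.04 and slightly lower in melinoe at -0.13 ± 0.04. BGLU15, which removes glucose from flavonols, passed in no comparison at 15.7 to 18.9 CPM, and BGLU12 had 1 read in all 9 libraries.

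BGLU40 to BGLU44 had no member higher than Col-0 in either comparison. BGLU40 had 14.0, 15.1 and 13.3 CPM in Col-0, 10.7, 13.6 and 12.7 in melinoe and 6.18, 6.78 and 6.86 with riboflavin. It fell with riboflavin, by a log2 fold change of -1.09 ± 0.09 (edgeR adjusted p = 1.19e-11), and melinoe overlapped Col-0 and did not pass at -0.19 ± 0.08 (edgeR adjusted p = 0.0579). BGLU42, which opens scopolin in roots that recruit beneficial microbes, had 11.8, 11.8 and 12.02 CPM in Col-0, 12.3, 10.4 and 9.93 in melinoe and 5.26, 5.58 and 6.03 with riboflavin. Its log2 fold change was -1.07 ± 0.09 with riboflavin (edgeR adjusted p = 3.97e-11), and melinoe did not pass at -0.13 ± 0.09.

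BGLU44, which acts on mannosides, had 245, 246 and 238 CPM in Col-0, 173, 168 and 170.1 in melinoe and 187, 195 and 191 with riboflavin. Both other groups lay below Col-0, at -0.51 ± 0.04 in melinoe and -0.34 ± 0.04 with riboflavin. BGLU43 was lower in both at -0.60 and -0.96, the melinoe call being lost with DESeq2 (adjusted p = 0.0963) and without melinoe library A (-0.46, adjusted p = 0.0843), and BGLU41 passed in no comparison. Coumarin genes, which include the makers of the BGLU42 and PYK10 substrate, were read beside these. Of 6 listed, 5 were among the genes measured and only 3 had enough reads to be tested. All 3 were higher in melinoe and 2 with riboflavin. F6'H1, the first enzyme of scopoletin synthesis, had 1.69 in melinoe and 0.24 with riboflavin, and the exporter PDR9 had 1.03 and 1.54. BGLU33, a vacuolar enzyme that frees abscisic acid, was lower in both, at -0.46 with riboflavin and -0.25 in melinoe.

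BGLU45 to BGLU47 act on glucosides of monolignols, the building blocks of lignin. BGLU45 had 3.76, 4.08 and 3.32 CPM in Col-0, 1.06, 0.778 and 0.925 in melinoe and 5.55, 5.82 and 6.86 with riboflavin. The groups did not overlap, and melinoe was lowest. BGLU45 had the largest fall of any tested member in melinoe, a log2 fold change of -2.01 ± 0.19 (edgeR adjusted p = 9.04e-10), and rose with riboflavin by 0.71 ± 0.13 (edgeR adjusted p = 1.35e-05). With riboflavin against melinoe it differed by 2.73 ± 0.17 (edgeR adjusted p = 9.70e-15). BGLU46 went the same ways, at -0.46 ± 0.05 in melinoe and 0.90 ± 0.05 with riboflavin. BGLU47 had 5 reads over the Col-0 libraries, 12 over melinoe and none with riboflavin, and was not tested. Set against a floor of 3 reads over the group, the 12 melinoe reads were 4-fold higher. That value is a description and leaves out the counting noise of so few reads.

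Enzymes that attach the glucose which these members remove were mixed too. Of 10 listed glucosyltransferases, 5 were higher and 4 lower with riboflavin, and 7 higher and 2 lower in melinoe. UGT72E1, which glucosylates lignin precursors, was lower with riboflavin at -1.39 and higher in melinoe at 1.10. UGT71B6, which glucosylates abscisic acid, was higher in both at 1.50 and 1.08, and UGT74C1, a glucosinolate-forming enzyme, was lower in both at -1.47 and -0.60.

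**Figure D3:**
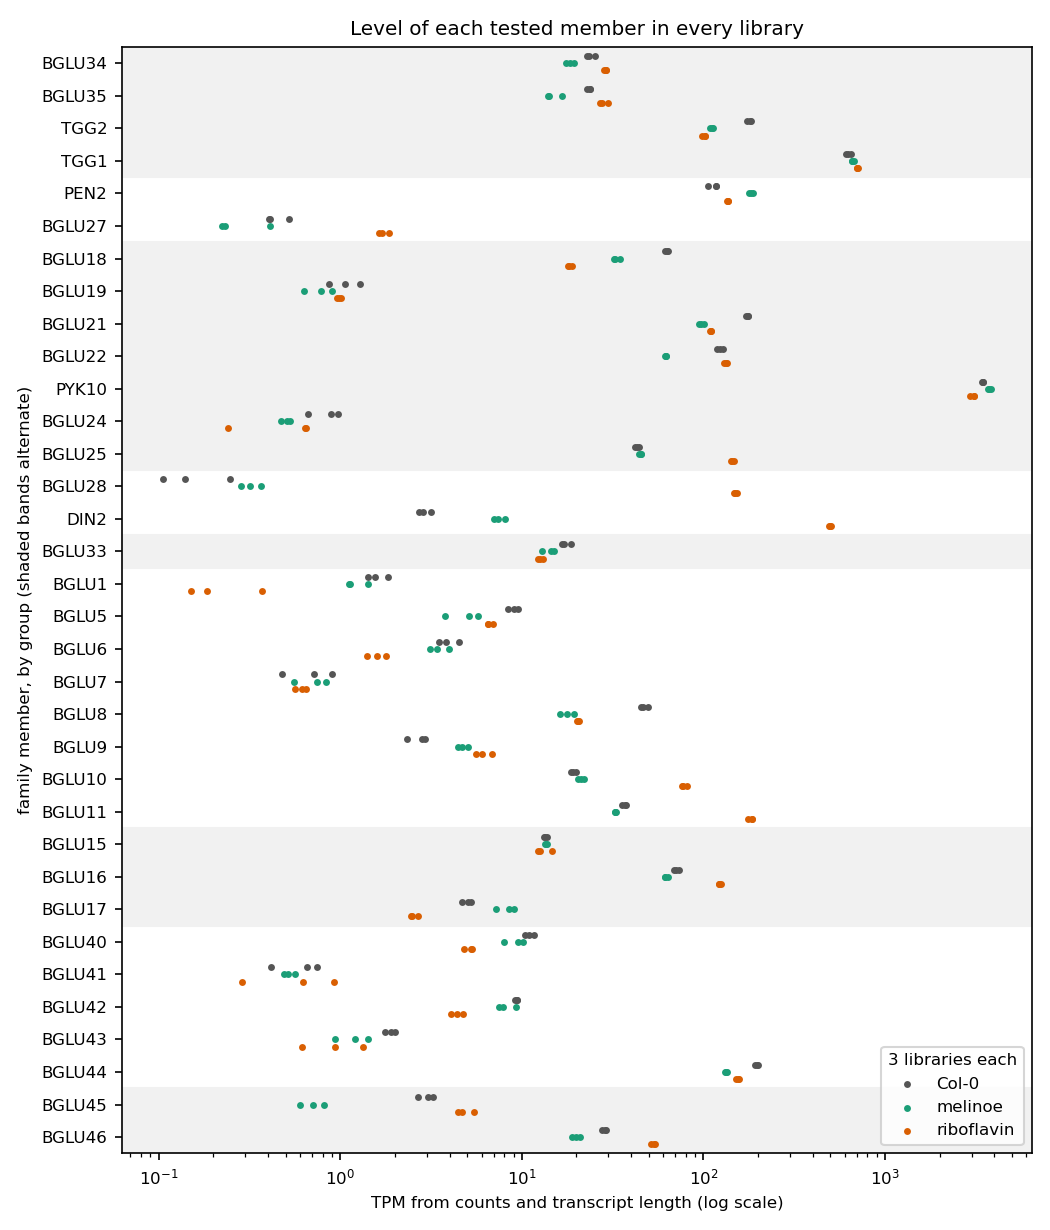
TPM (horizontal log axis) of each tested member in all 9 libraries, with Col-0 in grey, melinoe in green and riboflavin in orange, grouped by role in alternating bands. PYK10 lies at the right edge at 3042 to 3749 TPM on average, and BGLU28 and DIN2 move from the lower end to 149 and 499 TPM with riboflavin.

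Levels of different members were compared per gene length, as TPM computed from the deposited counts and the exon length of each gene's longest annotated transcript. In Col-0 the 6 most abundant members were PYK10 at 3452 TPM, TGG1 at 630.3, BGLU44 at 197, TGG2 at 178, BGLU21 at 174 and BGLU22 at 124. TGG2, at 173 to 182 TPM, and BGLU21, at 171 to 176, overlapped between libraries. For members above 1 TPM the computed values were 0.793 to 1.19 times the authors' deposited group means, so the order of members at similar levels depends on how length was corrected. PYK10 alone made up 65.0% of the family's summed TPM in Col-0, 70.2% in melinoe and 52.8% with riboflavin. With riboflavin DIN2 ranked 3 of 41 at 499 TPM and BGLU28 ranked 6 at 149, whereas they ranked 25 and 35 in Col-0.

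Summed over all members, the level was 5310.4 ± 20.7 TPM (SD, n = 3) in Col-0, 5343 ± 68.4 in melinoe and 5765 ± 103 with riboflavin. TPM are scaled to each library's total, without the TMM scaling of the CPM values. Small differences between groups in these sums therefore cannot be read as changes on the CPM scale used above. Without PYK10 the sums were 1858 ± 21.7, 1594 ± 10.5 and 2724 ± 24.9 TPM. The group of BGLU28 to BGLU32 with DIN2 summed to 3.10 ± 0.23, 7.86 ± 0.51 and 649 ± 3.01 TPM, or 11.3% of the family with riboflavin. Classical myrosinases summed to 856, 807 and 861 TPM, and the riboflavin libraries, at 851 to 869, overlapped Col-0, at 843 to 871.

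**Figure D4:**
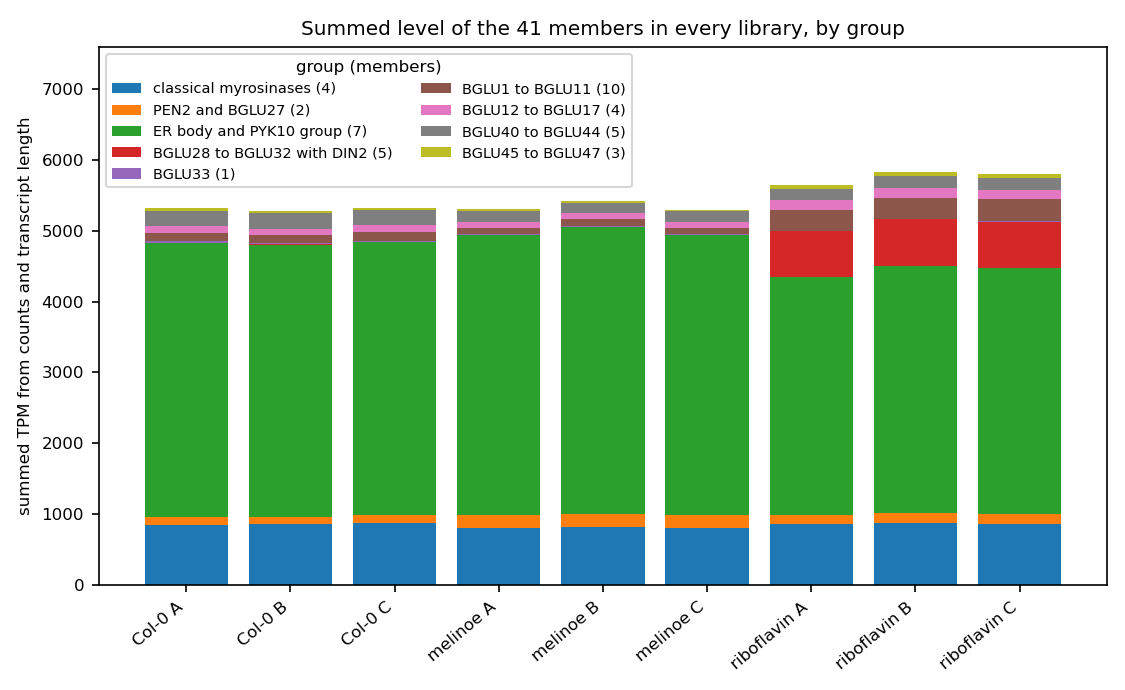
Summed TPM of the 41 members in each of the 9 libraries (stacked bars from 0), with 1 colour for each group of members. The green ER body and PYK10 group makes up 72.6% of the family in Col-0 and 59.8% with riboflavin, where the red group of BGLU28 to BGLU32 with DIN2 appears at 649 TPM on average.

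Total counts per library were 20972510 to 21421418 in Col-0, 19964397 to 20818004 in melinoe and 20677747 to 21103216 with riboflavin. FMN/FHY, the gene altered in the mutant, had 40.2 to 44.6 CPM in Col-0, 36.5 to 39.0 in melinoe and 110.3 to 113 with riboflavin, and an EMS allele need not change its level. Shoot markers were present in every library, with a summed level of 26109 to 27201 TPM in Col-0, 20065 to 21076 in melinoe and 8586 to 8684 with riboflavin, and 4 of 4 were lower in both comparisons, 0 of them at 0. Their part in the family's values was not tested. Flower and seed markers were at most 1.81 and 13.3 TPM in sum. The labels call the libraries of a group biological replicates, and no 2 of them agreed within sampling noise.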

How the data were processed

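The authors deposited expected counts for 9 libraries, with group means in TPM, in 2 tables that share the Col-0 columns. TAIR10 with RSEM, Bowtie2 and DESeq2 is named per the submitters' processing notes, while the design text names SOAPnuke 1.5.2 and HISAT2 2.0.4; which aligner gave the values is not given in the sources used here. The authors' deposited log2 fold changes and p-values were not used as results. Estimated counts, of which 1.92% were not whole, were rounded; genes absent from a table were set to 0 there. TPM were computed from the counts and transcript lengths; for members above 1 TPM they were a median of 1.14 times the authors' deposited mean TPM in each group. The authors' 12 deposited columns of per-library TPM were not used. Libraries were strand-specific, per the labels.

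The members and lists were chosen with earlier results of these data known. edgeR 4.0.16 (R 4.3.3; TMM, filterByExpr with a minimum count of 10 and total of 15, quasi-likelihood test, Benjamini-Hochberg adjustment over all genes) was fitted to each pair of groups, and tested on simulated data. The standard error is the absolute log2 fold change, taken without edgeR's prior count, divided by the square root of F. Members were given library values if, in a comparison, they were called without overlap at 100 or more mean counts and among the 6 highest or 6 lowest fold changes, or were among the 6 most abundant in Col-0, or were TGG1, TGG2, PEN2, PYK10, DIN2 or BGLU28. Genes outside the family were named from lists, at most 4 each, if called at an absolute log2 fold change of 1 or more against Col-0; NAI2, MEB1, FAMA and FMN/FHY were named outside that rule. Coding sequences (RefSeq, TAIR10.1) were aligned with MAFFT 7.526. Family genes BGLU2, BGLU13, BGLU14, BGLU36, ATA27 and TGG3 were not analysed here. Alternatives were DESeq2 1.42.0, other scalings, no filter, all 9 libraries in 1 fit, a replicate block and leaving out each library.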

Additional observations from a re-analysis of the deposited data

How the results depend on the processing

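Under 12 alternatives for each comparison, the number of members called stayed between 28 and 30 with riboflavin against Col-0 (30 in the report), between 20 and 25 in melinoe against Col-0 (23) and between 25 and 28 with riboflavin against melinoe (27). No member changed direction where it was called. With riboflavin, 401 of 408 member values kept their side of the threshold, the exceptions being BGLU24 and BGLU22. In melinoe 374 of 396 did, with 14 losing a call (BGLU24, BGLU25 and BGLU43) and 8 gaining one (BGLU11, BGLU40 and BGLU42). Between riboflavin and melinoe 398 of 408 did; BGLU5, BGLU8, BGLU9, BGLU21 and BGLU33 lost a call under some alternative and BGLU43 gained one. The cause was not tested. Columns carry letters where the labels carry replicate numbers, so pairs are unknown, and same-lettered libraries did not deviate together (correlations of -0.0358 to 0.0459). With the letter as a replicate block the counts were 30, 24 and 27. Depth limits BGLU3, BGLU4, BGLU12, BGLU29, BGLU31, BGLU32 and BGLU47, which were not tested. Without the filter BGLU47 passed as lower with riboflavin than in melinoe. That rests on 12 reads over melinoe and 0 with riboflavin, so it remains a description and not a result.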
